A study of Homo sapiens with 5 samples.

Results

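The 38 genes described here encode the factors that make ribosomes in the nucleolus, together with subunits and initiation factors of RNA polymerase I. They were taken as a list of gene symbols that uses no measured value in its rule but was drawn up with earlier results of these data known. All 38 were found among the 60623 genes of the count table, and all 38 passed the filter on low counts that left 13833 genes for testing. Polyadenylated RNA of HCT116 cells, a human line established from a colorectal carcinoma, was sequenced. Cells treated with LT4 gave 2 libraries (replicates 1 and 3), and controls gave 3 libraries (replicates 1, 2 and 3), of which the labels say nothing more. The series title calls the compound 4-acetylantrocamol LT3 while the sample titles say LT4, and neither dose nor time of treatment is given. The study's question was the effect of the compound on colorectal cancer cells, with PI3K/AKT and MAPK signalling in its title.

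RNA polymerase I transcribes the large precursor ribosomal RNA from repeated genes in the nucleolus. The precursor is then cut, folded, methylated and pseudouridylated by small nucleolar ribonucleoproteins (snoRNPs) and by processing complexes, which build the small and the large ribosomal subunit along separate paths. In growing and tumour cells this system is known to respond to MYC and to PI3K/AKT/mTOR and MAPK signalling. Polyadenylated RNA does not hold mature ribosomal RNA, so the libraries measure the messenger RNAs of the machinery and not its product. In bulk RNA, fewer cells expressing a gene and less RNA per cell cannot be told apart.

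Total counts were 9840467 and 2281912 in LT4 replicates 1 and 3, against 11653484 to 12296916 in the controls. LT4 replicate 3 stood apart. Genes detected (1 count or more) numbered 16770, against 19377 in LT4 replicate 1 and 19492 to 20203 in the controls. Mitochondrial genes took 9.92% of its counts, against 5.73% in LT4 replicate 1 and 5.83% to 6.64% in the controls. Separate cultures are not stated for the replicates, so each p-value covers the spread of these 5 libraries alone, and that spread may be technical. In the file headers the LT4 libraries are also listed as separate groups. The 5 epithelial markers EPCAM, CDH1, KRT8, KRT18 and KRT19 were present in all libraries, with summed levels of 9800 and 7884 TPM (a library-scaled level that is corrected for transcript length) in LT4 and 9001 to 10073 TPM in controls. Of the other markers, the leukocyte genes PTPRC and CD3E, the fibroblast genes DCN and PDGFRA and the hepatocyte gene TTR were at 0 in all 5 libraries. The summed level of the fibroblast list was 4.13 and 2.38 TPM in LT4 and 4.15 to 4.31 TPM in controls, and the sums of the leukocyte, hepatocyte and endothelial lists were all below 1 TPM.

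Some promoters of these genes hold a sequence feature that the choice of genes did not use and that was less frequent over all promoters. RefSeq promoter windows (GRCh38.p14, 250 bases before to 50 bases after each annotated start) were found for 32 of the 38 genes, in 40 windows. The E-box CACGTG, the site that MYC with MAX, and also USF proteins, are known to bind, reads the same on both strands. It stood in 14 of the 40 windows (35.0%), in 14 different genes, against 2548 of the 35116 windows of the whole table (7.26%). The share was 23.3% in 129 windows of other ribosome biogenesis genes and 5.13% in 78 windows of cytosolic ribosomal protein genes. The 15 E-boxes lay between 170 bases before and 35 bases after the first transcribed base, with 7 before it and 8 after it. In 10 genes an E-box began within 20 bases of the start. These 10 are shown because they hold 2 of the 3 genes with the smallest p-values of the list, WDR43 and FBL, which lay on opposite sides of the controls (described below with their values). Each line gives 30 bases of the gene's own strand, 5′ to 3′, with the E-box in capitals.
WDR43, chr2:28894658-28894687, plus strand: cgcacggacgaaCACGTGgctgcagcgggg
FBL, chr19:39846356-39846385, minus strand: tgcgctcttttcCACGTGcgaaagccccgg
PES1, chr22:30591880-30591909, minus strand: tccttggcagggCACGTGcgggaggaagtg
NOP10, chr15:34343130-34343159, minus strand: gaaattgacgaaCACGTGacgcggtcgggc
RRP9, chr3:51941892-51941921, minus strand: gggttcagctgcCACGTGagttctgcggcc
NOP14, chr4:2963374-2963403, minus strand: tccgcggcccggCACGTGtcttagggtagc
GNL3, chr3:52686026-52686055, plus strand: ggcttcagttcaCACGTGgcgccagcggag
UTP20, chr12:101280083-101280112, plus strand: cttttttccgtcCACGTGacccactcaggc
UTP4, chr16:69132621-69132650, plus strand: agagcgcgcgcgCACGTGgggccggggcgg
NAT10, chr11:34105602-34105631, plus strand: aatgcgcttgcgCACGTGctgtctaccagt

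The bases around the E-box differed from gene to gene in these lines, and a match of letters is a description of the window, not a binding site. POLR1B, the third of the 3 genes with the smallest p-values, had no E-box in its windows. It held instead the ETS core CCGGAAG, the core of sites that ETS family factors such as GABPA are known to bind, read on the opposite strand in the line shown with the core in capitals.
POLR1B, chr2:112542411-112542440, plus strand: ctgcggccactaCTTCCGGcgtgtaccgag

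On either strand, the ETS core was in 32.5% of the list's windows, against 10.3% of all windows, 40.3% of those of the other biogenesis genes and 33.3% of those of the ribosomal protein genes. No E-box overlapped an ETS core, and 4 windows held both. The GC box GGGCGG was in 70.0% of the list's windows against 45.0% of all windows, 62.8% for the other biogenesis genes and 55.1% for the ribosomal protein genes. The CCAAT box was in 35.0% against 34.6%, and TATAAA was in 2.50% against 11.5%. The windows of the list had a median GC content of 63.8%, against 58.7% for all windows; the part of base composition in these shares was not tested.

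The 38 genes spanned a wide range of levels. In the controls the highest were NOP10 (600 ± 9.50 TPM, SD, n = 3), NPM1 (495 ± 23.5 TPM) and FBL (472 ± 55.7 TPM). The lowest were UTP20 (5.23 ± 0.447 TPM), UTP15 (4.33 ± 0.674 TPM) and NOP2 (0.490 ± 0.152 TPM). The most abundant members were thus core proteins of modifying snoRNPs and nucleolar chaperones, and the least abundant were processing factors. Most of the exon length of NOP2 is shared with another gene (described below), so its level may be too low, which was not tested. Between control libraries the list had a median coefficient of variation of 7.73%, against 11.6% for all genes tested. Genes of like level were not compared. Together the 38 genes took 0.637% and 0.657% of all counts in LT4, against 0.660%, 0.665% and 0.645% in controls 1, 2 and 3.

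**Figure D1:**
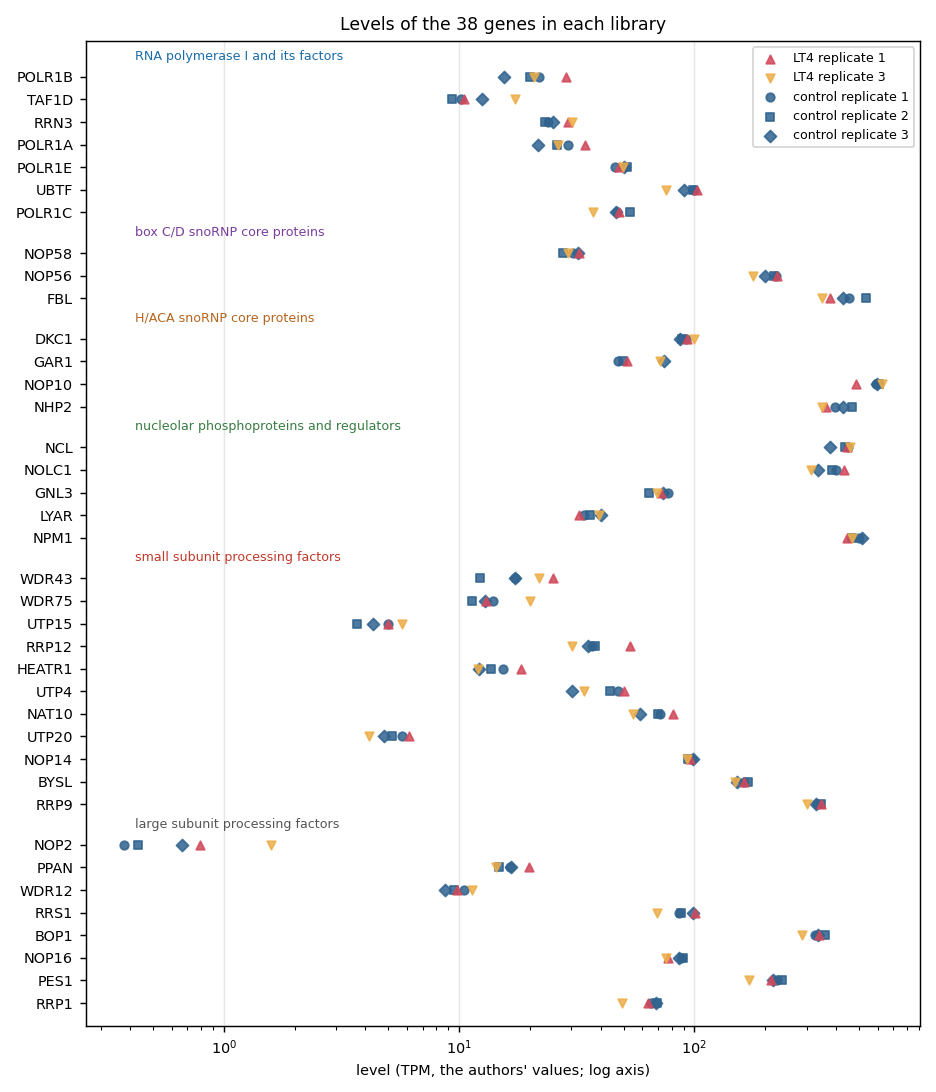
Level of each of the 38 genes in each library, in TPM on a log axis, by role; triangles are the LT4 libraries and the other symbols the controls. Levels run from 0.490 TPM (NOP2) to 600 TPM (NOP10) in the control mean, and the libraries of a gene lie close together beside the distance between genes.

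None of the 38 genes differed between LT4 and control cells past the threshold, an adjusted p under 0.05 over all genes tested in edgeR's quasi-likelihood F test. Over all 13833 genes, 19 passed (0.137%), of which 17 were higher (0.123%) and 2 lower (0.0145%), so a count of 0 among 38 genes is near the background. DESeq2 and limma voom also called 0 of the 38. At an unadjusted p under 0.05 there were 2 higher genes, WDR43 and POLR1B, and 1 lower gene, FBL, of 38 (all genes: 8.58% higher and 5.28% lower). The median log2 fold change (LT4 over control) was -0.03 over the list and -0.003 over all genes, with 17 positive and 21 negative values. They ran from -0.40 (FBL) to 1.03 (NOP2), and 28 of 38 were smaller than 0.25 in size.

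The fit also gave an interval for each gene, without adjustment. These intervals cover the spread of the 5 libraries alone. They do not bound an effect of the treatment, since separate cultures are not stated. The 95% interval of the log2 fold change lay within 0.5 either side of 0 (1.41-fold) for 21 of the 38 genes. It lay within 1 either side for 37, all but NOP2. The median half-width was 0.33. Depth was lowest in LT4 replicate 3, where the counts of these genes ran from 7 to 2917, and 9 genes had under 100.

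**Figure D2:**
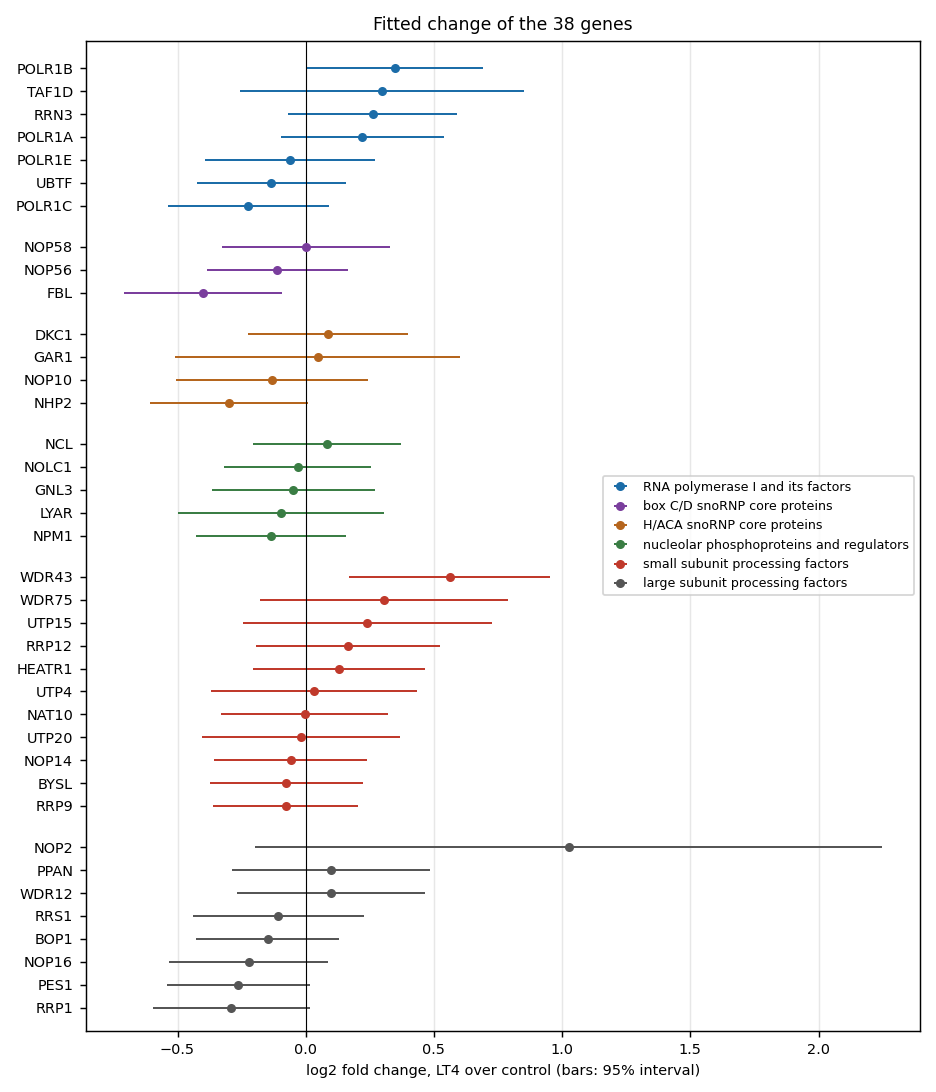
Fitted log2 fold change of each gene, LT4 over control, with its 95% interval, coloured by role. The intervals of 3 genes, WDR43, POLR1B and FBL, exclude 0 without adjustment, and that of NOP2 is the widest.

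The libraries were also set side by side in CPM, counts scaled for library size. For 5 genes (13.2%), WDR43, POLR1B, NOP2, RRN3 and POLR1A, the LT4 libraries were both above every control, against 17.3% of all genes. Both lay below all controls for 7 genes (18.4%), FBL, NHP2, PES1, RRP1, NOP16, POLR1C and BOP1, against 16.5% of all genes. These shares stood near the background. In TPM, which was not rescaled between libraries, 3 of the 5 and 5 of the 7 also showed no overlap; POLR1B, POLR1A, POLR1C and BOP1 did not. In TPM alone, DKC1 lay above all controls and NPM1 below them.

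RNA polymerase I and its factors had the highest median log2 fold change of the 6 role groups, 0.22 over 7 genes, with 4 positive values, in the fit of all libraries. In a fit with LT4 replicate 1 as the single LT4 library it was -0.04, in one with LT4 replicate 3 it was 0.15, and in neither was it the highest. POLR1B, a large catalytic subunit, had 62.2 and 54.0 CPM in LT4 replicates 1 and 3, against 50.9, 49.0 and 38.5 CPM in controls 1, 2 and 3. Both LT4 values were above the controls, the nearer one by a small margin. The fitted log2 fold change was 0.35 (SE 0.16, adjusted p = 0.353 by edgeR). POLR1A, the other large catalytic subunit, had 161 and 146 CPM in LT4, against 145, 136 and 114 CPM in controls. LT4 replicate 3 was barely above control 1, and the log2 fold change was 0.22 (SE 0.15, adjusted p = 0.531 by edgeR). With the trend on gene length removed from each library, POLR1A, the longest of the 38 by exon length, stood at -0.03.

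RRN3, also called TIF-IA, ties the polymerase to the promoter complex and is a known target of growth signalling. It had 41.9 and 51.3 CPM in LT4, against 36.7, 37.2 and 40.7 CPM in controls, a log2 difference of 0.26 (SE 0.15, adjusted p = 0.470 by edgeR). The groups did not overlap, with LT4 replicate 1 close to control 3. POLR1C, a subunit shared with RNA polymerase III, had 91.5 and 83.5 CPM in LT4, against 95.5, 113 and 100 CPM in controls. It lay below the controls, at -0.22 on the log2 scale (SE 0.15, adjusted p = 0.517 by edgeR).

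UBTF, the factor that coats and bends the ribosomal gene promoter, had the highest level of this group (89.4 TPM in LT4 and 96.1 TPM in controls, means). It had 249 and 217 CPM in LT4, against 256, 266 and 247 CPM in controls. LT4 replicate 1 fell among the controls, and the log2 fold change was -0.13 (SE 0.13). TAF1D, a subunit of the selectivity factor SL1, had 28.9 and 56.1 CPM in LT4, against 30.1, 28.6 and 39.0 CPM in controls. Its 2 LT4 libraries lay apart, 1 within the controls and 1 far above. POLR1E, a peripheral subunit, had a log2 fold change of -0.06.

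**Figure D3:**
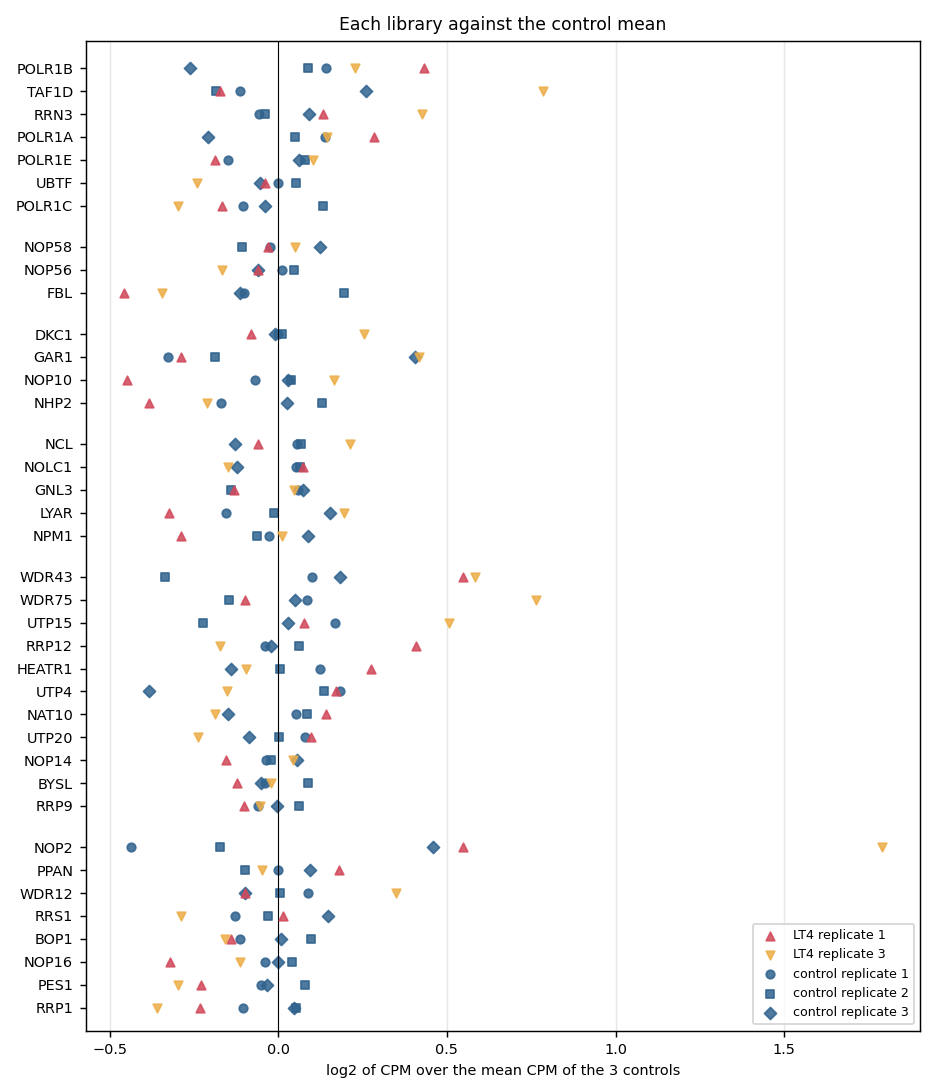
Each library's CPM relative to the mean CPM of the 3 controls, as log2, for the 38 genes in role order; triangles are the LT4 libraries. The LT4 libraries lie on the same side of all controls for 12 genes. LT4 replicates 1 and 3 lie farthest apart for NOP2, TAF1D, WDR75, GAR1 and NOP10.

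Among the box C/D snoRNP core proteins, which carry ribose methylation of ribosomal RNA, FBL stood below the controls. FBL, or fibrillarin, is the methyltransferase itself. It had 281 and 304 CPM in LT4 replicates 1 and 3, against 359, 441 and 357 CPM in controls 1, 2 and 3. Both LT4 values were well below the lowest control. The log2 fold change was -0.40 (SE 0.14, adjusted p = 0.242 by edgeR), the lowest of the 38, on means of 292 ± 16.4 CPM in LT4 (SD, n = 2) and 385 ± 47.9 CPM in controls (SD, n = 3). Its partner SNU13, listed here with the snoRNP assembly factors and named after its values were seen, had 294 and 294 CPM in LT4, against 326, 333 and 339 CPM in controls. It also lay below the controls, at -0.18 on the log2 scale (SE 0.13, adjusted p = 0.548 by edgeR). For NOP56 and NOP58 the groups overlapped. NOP56 had 386 and 359 CPM in LT4, against 407, 417 and 386 CPM in controls, with a log2 fold change of -0.11 (SE 0.13). NOP58 had 0.002, with both LT4 values within the controls.

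The H/ACA snoRNP core proteins belong to the particles that carry out pseudouridylation. NHP2 had 190 and 214 CPM in LT4, against 220, 271 and 253 CPM in controls. It lay below the controls, with LT4 replicate 3 near control 1, at -0.30 on the log2 scale (SE 0.14, adjusted p = 0.381 by edgeR). NOP10, the most abundant of the 38, had 92.9 and 142 CPM in LT4, against 121, 130 and 129 CPM in controls. LT4 replicate 1 was below all controls and LT4 replicate 3 above them, so the log2 fold change of -0.13 (SE 0.17) averages libraries of opposite sign. DKC1, or dyskerin, the pseudouridine synthase, showed the same order of libraries in CPM, with a log2 fold change of 0.09. In TPM both DKC1 values in LT4, 92.6 and 99.2, were above the controls, at 91.9, 88.7 and 86.5. GAR1 had a log2 fold change of 0.05.

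None of the 5 nucleolar phosphoproteins and regulators separated the groups in CPM, and their median log2 fold change was -0.05. NPM1, or nucleophosmin, a nucleolar chaperone, had 592 and 728 CPM in LT4, against 709, 693 and 769 CPM in controls. LT4 replicate 1 was lower and LT4 replicate 3 was within the controls, and the log2 fold change was -0.13 (SE 0.13). In TPM both LT4 values, 446 and 466, were below the controls, at 502, 469 and 515. The table holds 49 named NPM1 pseudogenes, of which 12 had counts, so reads of NPM1 may be split with near-identical copies. NCL, or nucleolin, had 1050 and 1269 CPM in LT4, against 1136, 1147 and 1000 CPM in controls, with a log2 fold change of 0.08 (SE 0.13). The scaffold NOLC1 had -0.03, the GTPase GNL3, or nucleostemin, -0.05, and LYAR -0.10.

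Among the 11 small subunit processing factors, with a median log2 fold change of 0.03, WDR43 had the smallest p-value of the whole list. WDR43 (UTP5 in yeast) belongs to the complex of UTP proteins that first binds the nascent precursor. It had 35.7 and 36.6 CPM in LT4 replicates 1 and 3, against 26.2, 19.3 and 27.7 CPM in controls 1, 2 and 3. The LT4 libraries were nearly equal and both were above every control. Means were 36.1 ± 0.589 CPM in LT4 (SD, n = 2) and 24.4 ± 4.46 CPM in controls (SD, n = 3), and the log2 fold change was 0.56 (SE 0.18, adjusted p = 0.201 by edgeR). In the authors' deposited table of each LT4 library against the controls, WDR43 had a log2 fold change of 0.56 in LT4 replicate 1 (adjusted p = 0.0427) and 0.56 in LT4 replicate 3 (adjusted p = 0.165). Of the 14970 genes with values there, 4.44% passed as higher and 1.65% as lower in LT4 replicate 1, and 3.31% and 1.53% in LT4 replicate 3.

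In the other members of that first complex the groups overlapped. WDR75 (UTP17 in yeast) had 22.8 and 41.3 CPM in LT4, against 25.8, 22 and 25.2 CPM in controls. LT4 replicate 3 was high and LT4 replicate 1 within the controls, at 0.30 on the log2 scale (SE 0.22, adjusted p = 0.572 by edgeR). UTP15 had a log2 fold change of 0.24, HEATR1 (UTP10 in yeast) 0.13 and UTP4 0.03. RRP9, the protein specific to the U3 snoRNP and the highest of this group in TPM, had 184 and 190 CPM in LT4, against 189, 206 and 197 CPM in controls. Its log2 fold change was -0.08 (SE 0.13). The others were the export factor RRP12 (0.16), the acetyltransferase NAT10 (-0.004), UTP20 (-0.02), NOP14 (-0.06) and BYSL (-0.08). RRP12, NAT10, UTP20 and the scaffold NOLC1 had LT4 replicate 1 above and LT4 replicate 3 below all controls.

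The 8 large subunit processing factors had a median log2 fold change of -0.13 (-0.12 with LT4 replicate 1 as the single LT4 library, -0.13 with LT4 replicate 3), and 4 of them lay below the controls in CPM. It was the lowest of the role groups in the fit of all libraries, but not with either LT4 library alone. Among these 4 were PES1 and BOP1, which with WDR12 form the PeBoW complex needed to process the internal spacers of the precursor. PES1 had 331 and 316 CPM in LT4, against 375, 410 and 380 CPM in controls, a log2 difference of -0.26 (SE 0.13, adjusted p = 0.387 by edgeR). BOP1 had 452 and 447 CPM in LT4, against 460, 533 and 501 CPM in controls, for -0.15 (SE 0.13, adjusted p = 0.643 by edgeR). With the GC trend removed from each library it stood at 0.03. WDR12, the remaining partner, was not lower, at 0.10, with LT4 replicate 3 above the controls and LT4 replicate 1 among them.

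RRP1 had 93.7 and 85.7 CPM in LT4, against 102, 114 and 114 CPM in controls. Both LT4 values were below, and the log2 fold change was -0.29 (SE 0.14, adjusted p = 0.387 by edgeR). NOP16, known as a MYC target, had 76.6 and 88.3 CPM in LT4, against 92.9, 98.3 and 95.6 CPM in controls, for -0.22 (SE 0.14, adjusted p = 0.511 by edgeR). PPAN had 0.10 and RRS1, which takes part in assembling the large subunit, had -0.11.

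NOP2, a methyltransferase of the large ribosomal RNA, had the largest log2 fold change, 1.03 (SE 0.57, 95% interval -0.20 to 2.25, adjusted p = 0.442 by edgeR). It rested on few reads, with counts of 13 and 7 in LT4 replicates 1 and 3, against 8, 9 and 14 in controls 1, 2 and 3. Scaled, these were 1.29 and 3.05 CPM in LT4, against 0.650, 0.781 and 1.21 CPM in controls, so LT4 replicate 1 was only just above control 3. In GENCODE 29, 54.4% of the exon length of NOP2 (chr12:6556863-6568691, minus strand) is shared with AC006064.6 on the same strand, a gene with 0 counts in all libraries. For PPAN, 59.8% is shared, mostly with the read-through gene PPAN-P2RY11, also at 0. NHP2 shares 27.4% with RMND5B on the opposite strand. The sources used here do not give the annotation or strand setting of the counting, and the part of these overlaps in the values was not tested.

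Taken singly, the LT4 libraries gave different members. These comparisons share the controls and assume that a lone library varies like them. With LT4 replicate 3 alone, 2 genes passed as higher and 0 as lower (all genes: 2.54% higher and 1.58% lower). They were TAF1D, at a log2 fold change of 0.79 (adjusted p = 0.0192 by edgeR), and WDR75, at 0.76 (adjusted p = 0.0349 by edgeR). With LT4 replicate 1 alone, 0 of 38 passed (all genes: 2.47% higher and 1.23% lower), and the same genes stood at -0.17 and -0.10. Over the 16 alternatives the adjusted p ran from 0.0192 to 0.933 for TAF1D and from 0.0349 to 0.995 for WDR75. The median over the 38 genes was -0.088 in the comparison of LT4 replicate 1 and -0.0048 in that of LT4 replicate 3. In the authors' deposited table, TAF1D (0.77, adjusted p = 0.0141) and WDR75 (0.74, adjusted p = 0.0364) passed in LT4 replicate 3, and WDR43 was the only 1 of the 38 to pass in LT4 replicate 1.

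Gene length, GC content and level moved with these single-library values. Across the 38 genes, which share the same libraries, the difference of LT4 replicate 1 from the controls had a Spearman correlation of 0.563 with exon length (0.389 over all genes). The difference of LT4 replicate 3 had one of -0.579 with GC content (-0.443 over all genes). With mean control CPM it had one of -0.523 (-0.223 over all genes). For LT4 replicate 1 the correlation with mean control CPM was -0.327 (-0.0875 over all genes). The control values enter both sides of these correlations with level, and the part of level was not tested. In the fit of all libraries, the log2 fold change over both LT4 libraries was 0.297 for TAF1D, 0.304 for WDR75 and 0.562 for WDR43. With the GC trend removed from every library, these values were -0.06, -0.01 and 0.38 in the same order. They are not like the values of LT4 replicate 3 alone, and the part of GC content in either was not tested.

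Genes of the list with and without an E-box were set side by side. The 14 with an E-box had a median log2 fold change of -0.05, with 4 positive and 10 negative values. The 18 without one in their windows had a median of 0.09, with 11 positive and 7 negative values. In the fit of all libraries no gene of either set passed the threshold, and both sets ran across 0. Negative values outnumbered positive ones in both sets with LT4 replicate 1 as the single LT4 library. With LT4 replicate 3 as the single LT4 library, the E-box set held as many positive as negative values. The set without an E-box then held slightly more positive than negative values. The contrast in signs between the sets was thus weaker with either LT4 library alone than in the fit of all libraries. WDR43 and FBL, whose E-boxes begin 3 and 6 bases after the first transcribed base, had log2 fold changes of 0.56 and -0.40. MYC itself had 341 and 267 CPM in LT4, against 339, 332 and 279 CPM in controls, with a log2 fold change of -0.05 (SE 0.15). LT4 replicate 1 was just above the highest control and LT4 replicate 3 below the lowest.

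**Figure D4:**
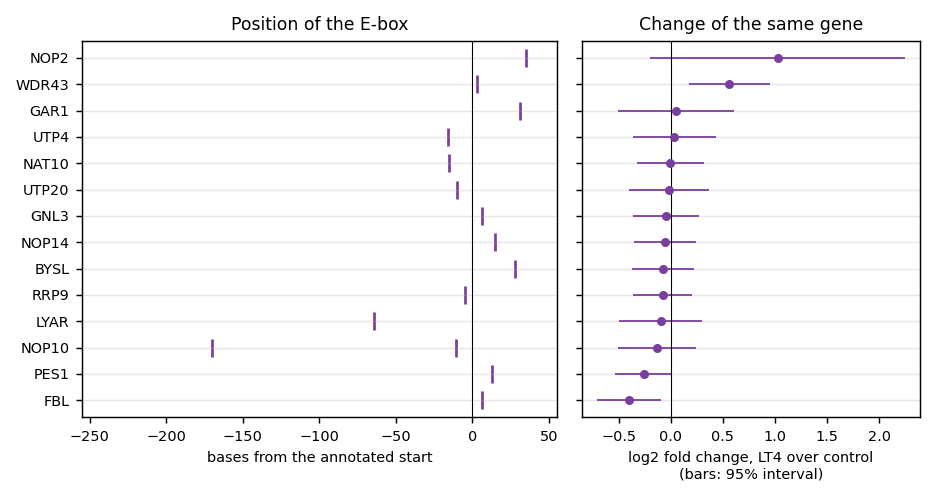
For the 14 genes with an E-box, its position in bases from the annotated start (left) and the fitted log2 fold change with its 95% interval (right). Most E-boxes stand close to the start, and the genes run from -0.40 (FBL) to 1.03 (NOP2) with no call among them.

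Another feature was the snoRNA genes that lie within the span of some of these genes. In GENCODE 29, 8 of the 38 genes (21.1%) hold 33 snoRNA genes on the same strand, against 1.28% of 19951 protein-coding genes. The hosts were WDR43, TAF1D, NOP56, NOP58, NCL, DKC1, PPAN and GNL3. Their median log2 fold change was 0.08, with 6 positive and 2 negative values. Over the other 30 genes it was -0.06, with 11 positive and 19 negative values. Most hosts had negative values with LT4 replicate 1 as the single LT4 library, and most had positive values with LT4 replicate 3. The snoRNAs themselves were hardly present in these polyadenylated libraries, with 11 and 11 summed counts in LT4 and 6 to 9 in controls. As CPM of the library total these were 1.12 and 4.82 in LT4 replicates 1 and 3, against 0.732, 0.502 and 0.687 in controls 1, 2 and 3, so the shallow LT4 replicate 3 was highest on this scale.

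The rest of the pathway was read from the same fit. None of 129 other tested biogenesis genes passed the threshold, and their median log2 fold change was -0.007. Several of the list medians that follow took another sign with 1 LT4 library. In fits with LT4 replicate 1 or LT4 replicate 3 as the single LT4 library, the medians were, in that order, -0.04 and -0.04 for the other polymerase I genes and -0.05 and 0.18 for the other small subunit factors. In the same order they were -0.003 and 0.06 for the other large subunit factors, -0.12 and -0.08 for the assembly factors, -0.14 and 0.003 for the exosome, and 0.07 and -0.25 for the MYC network. The other RNA polymerase I subunits and factors (14 genes) had a median of 0.08, with POLR1F at 0.72 (SE 0.25) and the shared subunit POLR2F at -0.37 (SE 0.15). The other small subunit factors (44 tested) had a median of 0.09, with WDR36, a further UTP protein, at 0.73 (SE 0.18, adjusted p = 0.117 by edgeR) and UTP18 at -0.40 (SE 0.15). The other large subunit factors (48 genes) had a median of 0.01. They held the helicase DDX21 at 0.69 (SE 0.15, adjusted p = 0.0962 by edgeR), the nearest to the threshold of these 129 genes, and the AAA ATPase MDN1 at 0.56 (SE 0.16).

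The snoRNP assembly factors (11 genes) had a median of -0.10, with ZNHIT6 at 0.73 (SE 0.26) and RUVBL1 at -0.23 (SE 0.14). The RNA exosome and its helicase (12 genes), which trim the precursor, had a median of -0.07, with EXOSC9 at -0.61 (SE 0.16) and the helicase MTREX at 0.70 (SE 0.19). In the MYC network (11 tested) the median was 0.004, and the lowest p-values were those of MXD3 at -0.50 (SE 0.16) and MYCL at -0.81 (SE 0.27), neither past the threshold.

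The cytosolic ribosomal proteins, the cargo of this machinery, had a lower median than the 38 genes. It was -0.14 over 79 genes, of which 68 had negative values, 0 passed the threshold, and 20 lay below all controls in both LT4 libraries (25.3%, against 16.5% of all genes). RPL5 had -0.52 (SE 0.15) and RPL23A -0.39 (SE 0.12). With LT4 replicate 1 alone their median was -0.30, and with LT4 replicate 3 alone it was -0.03. Over all genes the difference of LT4 replicate 1 rose with exon length (Spearman 0.389). The part of gene length in the medians of the ribosomal proteins was not tested.

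**Figure D5:**
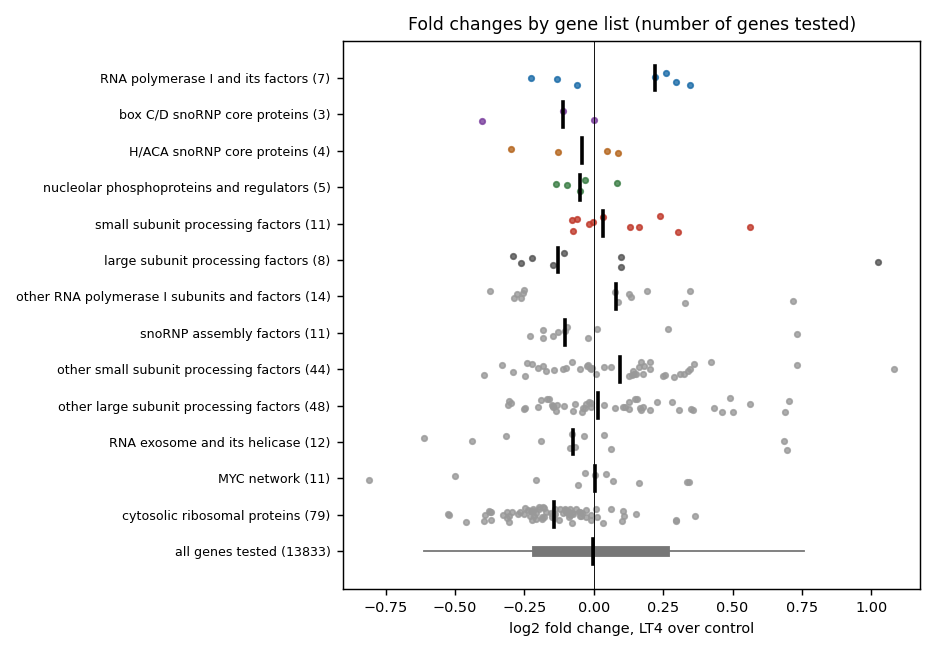
Log2 fold change of every tested gene in the role groups and the other lists, LT4 over control, with each list's median as a black bar; for all genes the box spans percentiles 25 to 75 and the line 5 to 95. Medians of the role groups run from -0.13 to 0.22 and that of the ribosomal proteins is -0.14, against -0.003 for all genes.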

How the data were processed

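TRIzol was used for extraction and a TruSeq stranded mRNA kit for the libraries, per the labels' protocols. The submitters' processing notes name fastp 0.20.0, HISAT2 2.1.0, Subread 2.0.1, featureCounts, SAMtools 1.9 and GRCh38, with no order or settings. Raw read counts for each Ensembl gene and library were deposited by the authors, per the file headers. The authors' deposited TPM values were used for levels between genes. The authors also deposited, for 14970 genes, log2 fold changes with adjusted p-values for each LT4 library, per the file headers; these are printed only as theirs, and their test is not stated. Of the table, 2 per-sample and 3 comparison columns with no matching sample were left out.

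Counts of all 5 libraries were tested with edgeR 4.0.16 (limma 3.58.1, R 4.3.3): expression filter, TMM scaling, robust quasi-likelihood F test, group as the only term, Benjamini-Hochberg adjustment over 13833 genes, threshold 0.05. The biological coefficient of variation came to 14.6%. Standard errors divide the size of the log2 fold change by the square root of F, and 95% intervals use the fit's degrees of freedom. CPM is TMM-scaled. The fit was tested on simulated data. Positions, exon overlaps, lengths and biotypes came from GENCODE 29 (58516 of 60623 IDs matched), promoters from RefSeq. Python 3.11.15, pandas 2.3.3 and matplotlib 3.10.9 were used for tables and plots.

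The 38 genes, the lists and their role groups were chosen with earlier results of these data known. Values in every library are given for the 12 members with the smallest p, the 2 smallest p and the highest TPM of each role group, and the 3 largest and 3 smallest log2 fold changes; of the other lists, the 2 smallest p, and MYC. TAF1D was added for its single-library result.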

Additional observations from a re-analysis of the deposited data

How the results depend on the processing

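None of the 38 genes passed the threshold in the fit of all 5 libraries or under any alternative run except with LT4 replicate 3 alone, so counts past it ran from 0 to 2 higher, and 0 lower, when each library was left out in turn. The number of all genes past the threshold, 17 higher and 2 lower as reported, moved far more. It was 229 and 82 without the count filter, 96 and 18 by DESeq2, 65 and 16 with the GC trend removed, 31 and 4 with the length trend removed, 36 and 6 with libraries thinned to the shallowest, and 1 and 0 at an adjusted p under 0.01. Limma voom called 4 lower and protein-coding genes alone 5 lower. Leaving out each library in turn gave 1 to 369 higher and 0 to 229 lower. With the replicate block, 316 were higher and 111 lower, and 0 of the 38. Groups share only numbers 1 and 3. The deviations of same-numbered libraries correlated at 0.21, and those of number 1 with number 3 at -0.21. With 2 LT4 libraries the deviations mirror each other, so these values can neither show nor exclude a pairing.

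The median of the 38 genes was -0.025, ran from -0.088 to -0.0048 when each library was left out, and was 0.022 with library totals only, where the median of all genes was 0.045. With thinned libraries, 3 in place of 5 genes lay above all controls. TAF1D (0.79) and WDR75 (0.76) passed without LT4 replicate 1. Of the 38 genes, 26 took the other sign under at least 1 of up to 16 alternatives and 12 did not, so the direction of a small value here should not be read from a single setting. The cause of these differences was not tested. The depth of LT4 replicate 3 limits the genes with the lowest counts, above all NOP2.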
